A study of Mus musculus with 8 samples.

Results

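The genes described here encode 10 core and accessory subunits of the Polycomb repressive complexes PRC1 and PRC2 of embryonic stem cells (ESCs): Ezh1, Ezh2, Eed, Suz12, Jarid2 and Mtf2 of PRC2, and Rnf2, Ring1, Cbx7 and Pcgf6 of PRC1. They were picked by name and role, with earlier results of these data known, and are 10 of the 55401 genes in the deposited table. RNA was sequenced from R1, a mouse ESC line, in 8 libraries that form 4 groups of 2. Control ESCs, labelled wild type, and Zfp462 knockout ESCs were grown on gelatin in serum medium with leukaemia inhibitory factor, a cytokine that keeps ESCs undifferentiated. Control and knockout embryoid bodies (EBs) came from the same kinds of cells after 3 days in suspension in Petri dishes, where ESCs aggregate and begin to differentiate. The series was designed to ask what the loss of Zfp462, a zinc finger gene, does to self-renewal and to differentiation. The labels describe the knockout lines as stable but give neither the edited exon nor the number of clones, and they leave unsaid whether replicates were grown as separate cultures. The p-values therefore rest on the spread between samples that may differ only technically.

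Polycomb complexes keep developmental genes silent. PRC2 methylates lysine 27 of histone H3 through the catalytic subunit EZH2 or its relative EZH1, which need EED, a reader of that mark, and the scaffold SUZ12. JARID2 and MTF2 are accessory subunits that define different forms of PRC2 and help to bring it to CpG islands. PRC1 ubiquitinates histone H2A through RING1B, encoded by Rnf2, or RING1A, encoded by Ring1, each paired with a PCGF protein. Canonical PRC1 holds a Polycomb CBX protein that binds H3 methylated at lysine 27, in ESCs mainly CBX7. The variant complex with PCGF6 lacks a CBX protein of this kind and is linked in ESCs to the silencing of germline genes.

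The 8 libraries held 12119763 to 16228426 counts. Zfp462 RNA was at 102.0 to 106.6 CPM (counts scaled to the TMM-adjusted library size) in the 4 knockout libraries and at 130.3 to 196.9 CPM in the 4 control libraries. It was lower but not absent, by -0.85 ± 0.10 on the log2 scale in ESCs (adjusted p = 0.000366) and -0.47 ± 0.10 in EBs (0.0207). In knockout ESC replicate 2 levels moved with GC content: the log2 deviation from the mean library had a median of 0.20 over the tenth of genes poorest in GC and of -0.54 over the tenth richest in GC. Knockout EB replicate 1 held adult liver transcripts, with 8 liver markers summing to 1829 CPM against 2.82 to 24.5 CPM in the other 7 libraries. The 8 ESC markers summed to 5794 to 5876 CPM in control ESCs, 4442 to 4532 CPM in knockout ESCs, 3300 to 3445 CPM in control EBs and 3497 to 3518 CPM in knockout EBs, with no marker at 0. The 6 fibroblast markers summed to 10.9 to 19.9 CPM and the 3 blood markers to at most 1.28 CPM in any library, with 1 or 2 of these 3 at 0.

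Promoter sequences are shown for 3 genes that were lower together in knockout ESCs and whose windows hold no exon base. Each is the 250 bases before a start that RefSeq gives in GRCm38.p6 (for Jarid2, 1300 bases inside the gene as the counts define it), read 5′ to 3′ on the gene's strand, with capitals on matches to 4 motifs searched on both strands: the CCAAT box (CCAAT), the GC box bound by SP factors (GGGCGG), an E2F site (TTTCCCGC) and the octamer bound by OCT4 (ATGCAAAT). An E2F match may share bases with a GC box on the other strand, which is not the case here.
Suz12, plus strand, chr11:79992856-79993105: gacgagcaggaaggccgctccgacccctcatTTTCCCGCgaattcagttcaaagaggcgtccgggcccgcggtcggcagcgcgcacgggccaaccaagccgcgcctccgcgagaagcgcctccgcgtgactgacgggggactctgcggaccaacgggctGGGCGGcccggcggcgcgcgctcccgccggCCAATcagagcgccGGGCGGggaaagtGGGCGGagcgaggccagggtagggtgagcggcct
Jarid2, plus strand, chr13:44730524-44730773: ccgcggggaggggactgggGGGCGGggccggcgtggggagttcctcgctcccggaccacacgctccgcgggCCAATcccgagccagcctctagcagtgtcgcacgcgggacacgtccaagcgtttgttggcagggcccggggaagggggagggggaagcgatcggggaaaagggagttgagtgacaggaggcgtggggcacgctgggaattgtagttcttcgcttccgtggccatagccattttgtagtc
Pcgf6, minus strand, chr19:47050907-47051156: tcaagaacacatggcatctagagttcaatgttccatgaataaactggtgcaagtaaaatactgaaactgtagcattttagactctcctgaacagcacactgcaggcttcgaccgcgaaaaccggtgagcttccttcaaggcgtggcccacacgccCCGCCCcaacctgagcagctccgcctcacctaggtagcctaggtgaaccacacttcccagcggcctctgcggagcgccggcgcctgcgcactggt

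All 10 genes had a RefSeq window, and all were rich in CpG. The observed over expected CpG ratio ran from 0.652 in Eed to 1.10 in Suz12, with a median of 0.877, against a median of 0.374 over all 32851 windows of the same length. GC boxes stood in 7 of the 10 windows (32.7% of all windows held one), and CCAAT boxes in 4 (33.9%), namely Ezh2, Suz12, Jarid2 and Cbx7. The E2F letters were found in Suz12 alone (0.895% of all windows) and the octamer in none of the 10 (1.60%). The windows of Ezh2, Eed and Cbx7 hold exon bases of their own or neighbouring genes and are not printed. A match is a description of letters and not of binding.

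Levels of different genes were compared after division by exon length (FPKM, CPM per kilobase of annotated exon). In control ESCs Suz12 was the highest at 148.2 ± 1.18 FPKM (SD, n = 2 here and below). Mtf2 followed at 76.3 ± 0.557 FPKM, Jarid2 at 63.7 ± 3.17 FPKM and Eed at 55.8 ± 1.96 FPKM. Rnf2 stood at 38.5 ± 0.00325 FPKM, and Cbx7 (33.0 ± 0.866 FPKM) and Ezh2 (32.9 ± 0.00538 FPKM) overlapped in their library values. Pcgf6 (18.4 ± 1.08 FPKM) and Ezh1 (15.6 ± 0.0574 FPKM) were lower, and Ring1 was the lowest at 2.11 ± 0.0711 FPKM, with 82 to 126 counts per library over the 8 libraries. All other neighbours in this order had library values that did not overlap. Suz12 stayed the highest and Ring1 the lowest in all 4 groups, while Jarid2 lay below Eed in knockout ESCs (45.3 ± 0.703 against 49.7 ± 4.14 FPKM). Jarid2 lay above Mtf2 in control EBs (59.6 ± 1.46 against 48.9 ± 0.0766 FPKM) and in knockout EBs (57.9 ± 0.838 against 53.9 ± 1.02 FPKM).

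**Figure D1:**
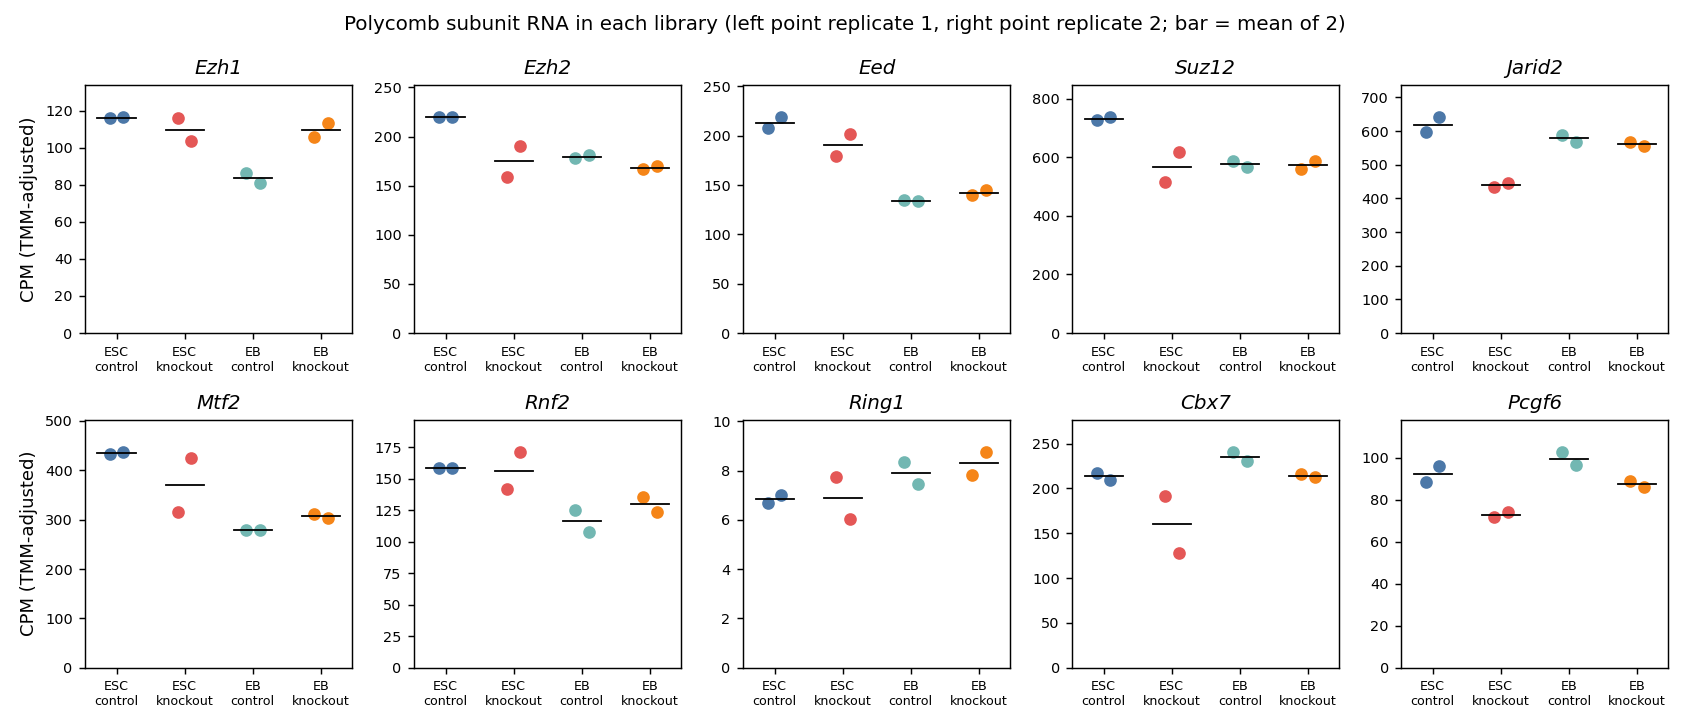
CPM (y axis, linear from 0) of each of the 10 genes in control and knockout ESCs and EBs, with 1 point per library and a bar at the mean of 2. Jarid2 stands at 435.2 and 444.9 CPM in knockout ESCs and between 556.3 and 641.0 CPM in the other 6 libraries.

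The first comparison asked what the knockout changed in undifferentiated ESCs. Jarid2, Suz12, Ezh2 and Pcgf6 fell in knockout ESCs, to between 71.1% and 79.6% of the control level, and none of the 10 genes rose. The 4 calls of 10 stand beside 6.2% of all tested genes called lower and 14.5% called in either direction (edgeR's quasi-likelihood test, adjusted p below 0.05). The median log2 difference of the 10 genes was -0.28, against -0.03 over all 17125 genes tested. Other chromatin lists had medians nearby: -0.27 over 14 COMPASS genes, -0.21 over 11 PR-DUB genes and -0.31 over the 2 H3K27 demethylase genes, while 29 other PRC1 genes had -0.06. Both knockout libraries lay below both control libraries for 8 of the 10 genes, which held for 27.5% of all genes. Ezh1 is counted there by a near tie, with 115.86 CPM in knockout replicate 1 against 115.866 CPM in control replicate 1. DESeq2 called 3 of the 10 lower, beside 1011 of the 17125 genes tested. In bulk RNA, fewer cells that express a gene and less RNA per cell cannot be told apart.

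Jarid2 had the largest difference among the called genes. Its levels were 597.4 and 641.0 CPM in control ESCs and 435.2 and 444.9 CPM in knockout ESCs. Both knockout libraries were low and close to each other. Jarid2 fell by 0.49 ± 0.07 on the log2 scale (estimate ± SE, 95% interval -0.65 to -0.33, adjusted p = 0.00134), and it was called without any single library (adjusted p 0.000163 to 0.0372). Suz12, the scaffold, stood at 728.9 and 737.2 CPM in control ESCs and at 515.1 and 618.0 CPM in knockout ESCs. The groups did not overlap, and knockout replicate 1 was the lower. Suz12 fell by 0.37 ± 0.09 (-0.57 to -0.17, adjusted p = 0.0203), but not without control ESC replicate 1 (0.131) or 2 (0.165) or with only the ESC groups fitted (0.115).

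Ezh2, the main methyltransferase of proliferating cells, had 219.6 CPM in both control ESC libraries and 158.7 and 190.8 CPM in the knockout libraries. The log2 difference of -0.33 ± 0.10 (-0.55 to -0.11) was just inside the threshold at an adjusted p of 0.0491. It lay outside without either control ESC library (0.227 and 0.255), without either control EB library (0.0953 and 0.0937) or without either knockout EB library (0.0812 and 0.0876). It also lay outside with all libraries kept but scaled by DESeq2 size factors (0.0537) or library totals (0.0554), with a filter at a mean of 1 CPM (0.0699), and with only the ESC groups fitted (0.189). Eed, the reader subunit, stood at 208.1 and 218.8 CPM in control and 179.1 and 201.5 CPM in knockout ESCs and did not pass (-0.17 ± 0.09, adjusted p = 0.268; 0.0217 without knockout ESC replicate 2). Mtf2 had 432.5 and 437.0 CPM in control and 316.2 and 424.7 CPM in knockout ESCs. Only the first of these knockout values was far from the controls, and Mtf2 did not pass (-0.23 ± 0.12, adjusted p = 0.240; 0.000282 without knockout ESC replicate 2). Ezh1, the weaker methyltransferase, had a difference of -0.08 ± 0.10 (-0.30 to 0.13, adjusted p = 0.636), with 115.9 and 116.5 CPM in control and 115.9 and 103.6 CPM in knockout ESCs.

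Among the PRC1 genes, Pcgf6 had 88.4 and 96.1 CPM in control ESCs and 71.9 and 74.0 CPM in knockout ESCs. Both knockout libraries were low, and Pcgf6 fell by 0.34 ± 0.09 (-0.55 to -0.13, adjusted p = 0.0353). That call was lost without control ESC replicate 1 (0.113) or 2 (0.290), control EB replicate 1 (0.0626) or 2 (0.0622), or knockout EB replicate 1 (0.0818) or 2 (0.0855). It was also lost without a filter on low counts (0.0552), with DESeq2 (0.0532) and with only the ESC groups fitted (0.163). Cbx7 had 217.7 and 209.8 CPM in control ESCs and 191.8 and 128.0 CPM in knockout ESCs. Its fitted difference was large but uneven (-0.42 ± 0.15, -0.75 to -0.09), and it did not pass (adjusted p = 0.0951). Cbx7 was called without a filter on low counts (0.00216). Without knockout ESC replicate 1, so with the GC-trended library as the lone knockout, the difference was -0.75. The catalytic genes showed no called difference: Rnf2 had -0.02 ± 0.12 (-0.28 to 0.23, adjusted p = 0.934) and Ring1 0.01 ± 0.22 (-0.47 to 0.49, adjusted p = 0.987), and for both the groups overlapped.

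**Figure D2:**
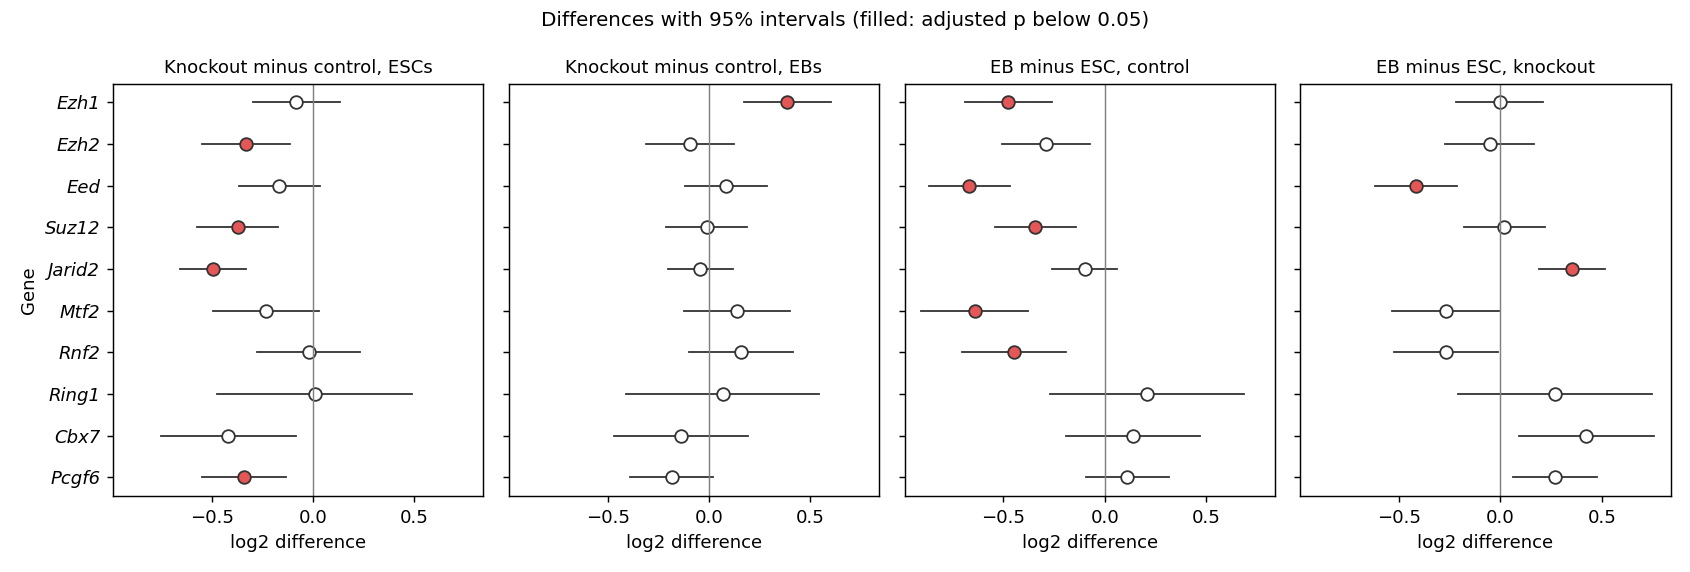
Log2 differences (x axis) of the 10 genes (y axis) in 4 comparisons, with points at the fitted value, lines for the 95% interval and filled points for an adjusted p below 0.05. In ESCs the filled points run from Jarid2 at -0.49 to Ezh2 at -0.33, with Cbx7 open at -0.42, and in EBs the only filled point is Ezh1 at 0.39.

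The spread between the knockout ESC libraries followed the GC content of the genes. Replicate 2 lay above replicate 1 by 0.43 on the log2 scale for Mtf2, whose longest transcript has 38.2% GC, and below it by 0.58 for Cbx7 with 56.4% GC (log2 difference -0.58). For Jarid2 (48.8% GC) and Pcgf6 (44.5% GC) the replicates differed by 0.03 and 0.04. When each library's trend on GC content was removed, 7 of the 10 genes were called lower and none higher, against 12.5% of all genes called lower in that fit. The added genes were Eed (-0.23 ± 0.07, adjusted p = 0.0283), Mtf2 (-0.24 ± 0.06, 0.0157) and Cbx7 (-0.37 ± 0.08, 0.0031). Jarid2 had -0.55 ± 0.06 (adjusted p = 2.6e-05) and Suz12 -0.41 ± 0.06 (0.000226). With both libraries that stand apart left out, so with 1 library in each knockout group, 6 genes were called lower (9.27% of all genes): Jarid2, Suz12, Ezh2, Pcgf6, Eed and Mtf2.

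**Figure D3:**
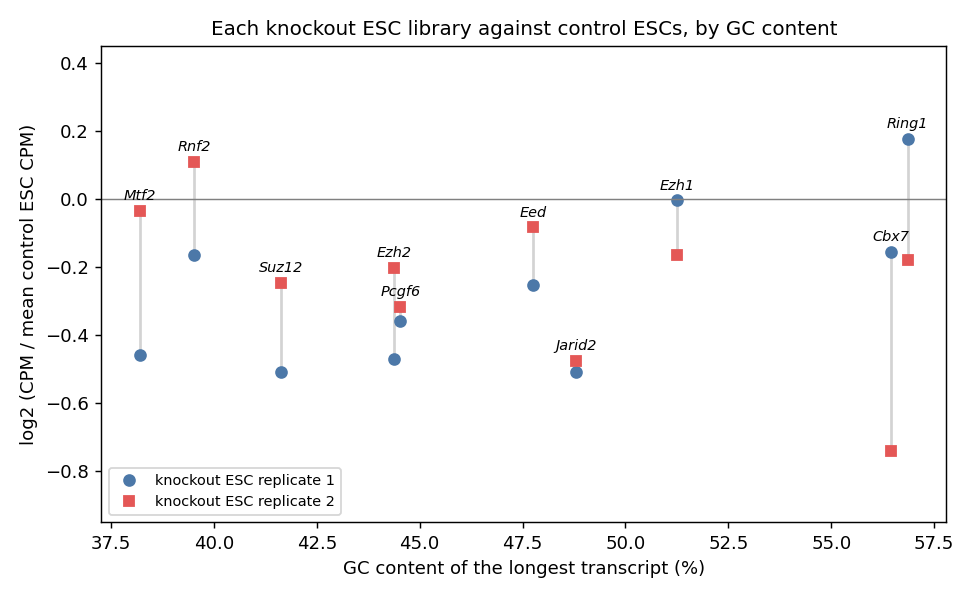
Log2 ratio of each knockout ESC library to the mean of the control ESC libraries (y axis) against the GC content of the gene's longest transcript in percent (x axis). Replicate 2 (squares) lies above replicate 1 (circles) for low-GC genes such as Mtf2 and below it for Ezh1, Cbx7 and Ring1, while Jarid2 and Pcgf6 have nearly the same value in both.

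Markers of other cell states differed between these groups as well. The 10 extraembryonic endoderm markers summed to 2878 and 3033 CPM in control ESCs and 12854.5 and 10072 CPM in knockout ESCs, with none of the 10 at 0. The 7 markers of 2-cell-like cells summed to 78.2 to 84.7 CPM in control ESCs and to 306.2 to 402.1 CPM in knockout ESCs, also with none at 0. The 6 formative epiblast markers summed to 316.9 and 342.3 CPM and to 370.1 and 354.7 CPM. Their part in the lower level of the Polycomb genes was not tested.

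The second comparison was made after 3 days of EB culture. Ezh1 rose in knockout EBs, and none of the other 9 genes passed in either direction. The share of all genes called was 4.75% higher and 6.8% in either direction. Ezh1 had 86.3 and 80.8 CPM in control EBs and 105.6 and 113.2 CPM in knockout EBs, so the groups were apart. The log2 difference was 0.39 ± 0.10 (0.17 to 0.60, adjusted p = 0.0393). Eed and Mtf2 also had both knockout EB libraries above both controls (30% of all genes), and Ezh2, Jarid2, Cbx7 and Pcgf6 had both below (29.4%). The call rested on every EB library: it was lost without control EB replicate 1 (0.190) or 2 (0.212) and knockout EB replicate 1 (0.155) or 2 (0.291), and also without control ESC replicate 1 (0.113) or 2 (0.112). Without knockout ESC replicate 1, Mtf2 was called higher as well (adjusted p = 0.0445).

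Of the genes called lower in knockout ESCs, Jarid2 and Suz12 were close to the control level in EBs. Jarid2 stood at 588.6 and 568.6 CPM in control and 567.8 and 556.3 CPM in knockout EBs (-0.04 ± 0.07, interval -0.20 to 0.12). Suz12 stood at 588.9 and 567.0 CPM and at 559.8 and 587.8 CPM (-0.01 ± 0.09, -0.21 to 0.19). Their intervals leave out the ESC estimates of -0.49 and -0.37, but those estimates have errors of their own. The difference between the 2 stages was not called for Jarid2 (adjusted p = 0.0737) or Suz12 (0.263) by edgeR's quasi-likelihood test. Ezh2 had 177.8 and 181.6 CPM in control and 167.1 and 169.7 CPM in knockout EBs (-0.09 ± 0.10, -0.31 to 0.13), and Pcgf6 had 102.8 and 96.5 CPM and 89.2 and 86.4 CPM (-0.18 ± 0.09, -0.39 to 0.02). The Pcgf6 interval holds its ESC estimate of -0.34, and the Ezh2 interval ends just short of its ESC estimate of -0.33. Cbx7 (-0.14 ± 0.15), Eed (0.08 ± 0.09), Mtf2 (0.14 ± 0.12), Rnf2 (0.16 ± 0.12) and Ring1 (0.07 ± 0.21) did not pass either.

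Whether the knockout effect in EBs differed from that in ESCs was tested for each gene. The fitted EB effect minus the ESC effect was above 0 for all 10 genes, with a median of 0.27 against 0.03 over all genes tested, although Ring1 was below 0 with the GC trend removed and in other settings given in the closing section, and Cbx7 without both libraries that stand apart. Of the 10, 0 were called by edgeR's quasi-likelihood test and 0 by DESeq2, where edgeR called 1.38% of all genes in either direction and 0.742% higher. At an unadjusted p under 0.05 there were 3 genes by either tool. No share of all genes is given at that threshold, so this count cannot be set against the background. By edgeR these were Jarid2 (0.45 ± 0.10, adjusted p = 0.0737), Ezh1 (0.47 ± 0.14, 0.158) and Suz12 (0.36 ± 0.13, 0.263). With the GC trend removed, the same 3 genes passed: Jarid2 (0.42 ± 0.08, adjusted p = 0.0141), Suz12 (0.35 ± 0.08, 0.0281) and Ezh1 (0.42 ± 0.11, 0.0490), where 2.2% of all genes were called higher. Without knockout ESC replicate 1, 4 genes passed (Jarid2, Ezh1, Suz12 and Cbx7; 8% of all genes were called higher), and without replicate 2, 6 genes did (Jarid2, Ezh1, Suz12, Ezh2, Eed and Mtf2; 3.06%). These counts come from fits with 1 knockout ESC library, which assume that it varies like the other groups.

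The third comparison followed control cells from ESCs to day 3 EBs. Eed, Mtf2, Ezh1, Rnf2 and Suz12 fell and none of the 10 rose, against 9.63% of all genes called lower and 18.2% in either direction. Both EB libraries lay below both ESC libraries for 7 genes (33.1% of all genes) and above them for 3, Ring1, Cbx7 and Pcgf6 (31.8%). The PRC2 genes differed in size of change: Eed went from 208.1 and 218.8 CPM to 134.9 and 133.9 CPM, and Jarid2 only from 597.4 and 641.0 CPM to 588.6 and 568.6 CPM.

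Eed fell by 0.67 ± 0.09 on the log2 scale (-0.87 to -0.47, adjusted p = 0.00077) and was called without any single library (at most 0.0255). Mtf2 went from 432.5 and 437.0 CPM to 278.4 and 279.0 CPM and fell by 0.64 ± 0.12 (adjusted p = 0.0047). Ezh1 fell by 0.48 ± 0.10 (adjusted p = 0.00756), from 115.9 and 116.5 CPM to 86.3 and 80.8 CPM. Rnf2, encoding the main E3 ligase, went from 158.8 CPM in both ESC libraries to 125.2 and 107.8 CPM and fell by 0.45 ± 0.12 (adjusted p = 0.0241). Suz12 fell by 0.34 ± 0.09 (adjusted p = 0.0254). Leaving out any 1 of the 4 control libraries ended the other 4 calls. The adjusted p without control ESC replicate 1, without control ESC replicate 2, without control EB replicate 1 and without control EB replicate 2 was 0.0556, 0.0672, 0.0662 and 0.0600 for Mtf2, and 0.0738, 0.0898, 0.0518 and 0.0798 for Ezh1. In the same order it was 0.145, 0.160, 0.0648 and 0.181 for Rnf2, and 0.143, 0.173, 0.122 and 0.150 for Suz12.

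Ezh2 had -0.29 ± 0.10 (-0.51 to -0.07) and did not pass at an adjusted p of 0.0678. It was called without knockout ESC replicate 1 (0.00152) or 2 (0.00148) and with library totals in place of TMM factors (0.0284). Jarid2 (-0.10 ± 0.07), Pcgf6 (0.11 ± 0.09), Cbx7 (0.14 ± 0.15) and Ring1 (0.21 ± 0.22) did not pass. The 6 formative epiblast markers summed to 1862 and 1967 CPM in control EBs, where the ESC libraries had at most 342.3 CPM. The part of this shift in cell state was not tested.

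In knockout cells Eed fell at the same step, as in control cells, and Jarid2 rose, against 7.11% of all genes called lower, 8.23% called higher and 15.3% in either direction. Eed went from 179.1 and 201.5 CPM in knockout ESCs to 139.9 and 144.9 CPM in knockout EBs (-0.42 ± 0.09, adjusted p = 0.0130; 0.138 without knockout EB replicate 1 and 0.0749 without replicate 2). Jarid2 rose by 0.35 ± 0.07 (adjusted p = 0.0103; 0.0899 and 0.0645), from 435.2 and 444.9 CPM to 567.8 and 556.3 CPM. Both knockout EB libraries of Jarid2 were below both control EB libraries, by little. Mtf2 (-0.27 ± 0.12, adjusted p = 0.151), Rnf2 (-0.27 ± 0.12, 0.147), Suz12 (0.02 ± 0.09, 0.915), Ezh1 (0.00 ± 0.10, 0.980) and Ezh2 (-0.05 ± 0.10, 0.755) did not pass. Pcgf6 (0.27 ± 0.09, adjusted p = 0.0805) passed with the GC trend removed (0.00593). Its difference was 0.26 without knockout ESC replicate 1 and 0.29 without replicate 2. Cbx7 (0.42 ± 0.15, 0.0843) passed without a filter on low counts (0.00158), with DESeq2 (0.0432) and with a replicate block and the GC trend removed together (0.0361). Without knockout ESC replicate 1 the Cbx7 difference was 0.76. Mtf2 (0.000116) and Rnf2 (0.0099) were called lower without knockout ESC replicate 1. The 6 formative epiblast markers summed to 1147 to 1167 CPM in knockout EBs, and their part in these values was not tested.

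Subunits that take the same place in a complex were compared as shares of their summed length-scaled counts. Of Ezh1 and Ezh2 together, Ezh1 made up 32.1% and 32.3% in control ESCs, 39.6% and 32.8% in knockout ESCs, 30.4% and 28.5% in control EBs and 36.2% and 37.5% in knockout EBs. The share was higher in both knockout groups than in the matching controls, with no overlap of library values. In ESCs this was a near tie for knockout replicate 2, the library with the GC trend (32.8% against 32.3% in a control). The longest transcript of Ezh1 has 51.2% GC and that of Ezh2 44.4%, and the part of GC content in the share was not tested. Ring1 made up 4.29% to 8.23% of Ring1 and Rnf2 in the 8 libraries. With 2 libraries per group no permutation test of a share can reach a p below 0.05, so none is given.

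Of Cbx2, Cbx6, Cbx7 and Cbx8 together, Cbx7 made up the largest share in every library, at 62.9% to 70.6%. Its share was 69.7 ± 1.19% in control ESCs and 67.9 ± 1.61% in knockout ESCs, with overlapping library values. Cbx8, the lowest of these 4, had a share of 1.02 ± 0.277% in control and 3.05 ± 0.388% in knockout ESCs, and of 0.815 ± 0.183% in control and 1.80 ± 0.0422% in knockout EBs. Among the Pcgf genes, which set the type of PRC1, Pcgf2 had the largest share by exon length (40.5 ± 0.38% in control ESCs) and Pcgf6 the next (28.0 ± 0.547%). In knockout ESCs Pcgf6 had 23.5 ± 1.88% and Bmi1, which encodes PCGF4, had 12.5 ± 3.45% against 5.23 ± 0.515% in control ESCs. In EBs Bmi1 had 8.80 ± 0.311% in knockout and 4.70 ± 0.616% in control. By coding length in place of exon length Pcgf3 and not Pcgf2 was the largest (35.9 ± 0.0774% in control ESCs), while the Pcgf6 and Bmi1 shares kept their direction (Pcgf6 23.5 ± 0.463% to 18.7 ± 0.502%, Bmi1 3.79 ± 0.373% to 8.53 ± 1.91%).

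**Figure D4:**
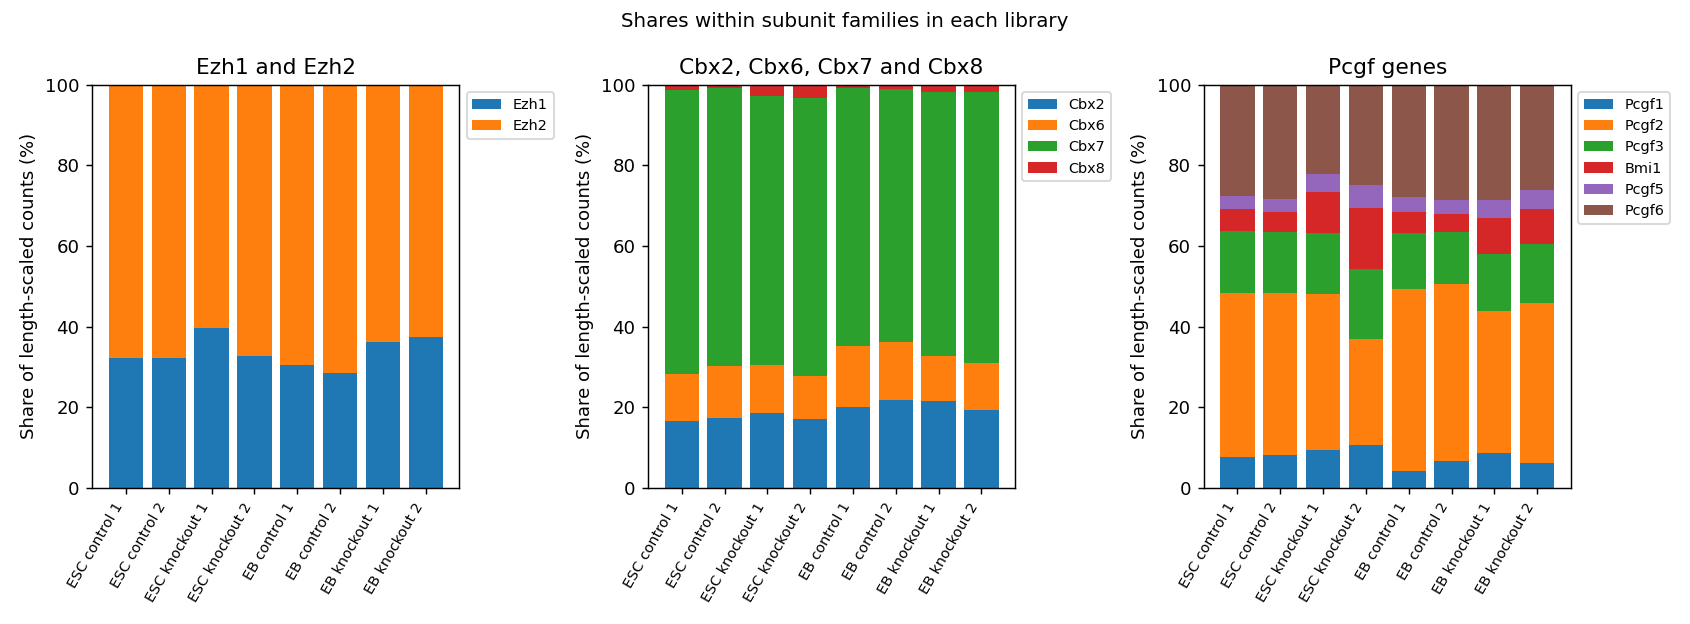
Stacked shares of length-scaled counts in percent (y axis, from 0 to 100) in each of the 8 libraries (x axis) for Ezh1 and Ezh2, for 4 Cbx genes and for 6 Pcgf genes. Ezh2 and Cbx7 take the largest part of their families in every library, and the Bmi1 part is larger in the 4 knockout libraries (8.58% to 15.0%) than in the 4 controls (4.26% to 5.59%).

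Of 8 other PRC2 subunits tested, 1 was called in knockout ESCs, where 14.5% of all genes were called. Rbbp7, a histone-binding WD40 protein shared with other complexes, rose (0.39 ± 0.09, adjusted p = 0.0119; 0.127 and 0.134 without control ESC replicate 1 or 2) and none fell. The median of the 8 was -0.03. Aebp2 (-0.11 ± 0.09), Phf1 (0.04 ± 0.27), Phf19 (-0.38 ± 0.24), Epop (0.11 ± 0.24) and Rbbp4 (-0.12 ± 0.08) did not pass. Epop rests on unequal libraries, at 275 ± 138 CPM in knockout ESCs, and passed with the GC trend removed (0.41, adjusted p = 0.000557). Phf19, a relative of Mtf2 in the same form of PRC2, fell in control cells from 12.7 and 10.2 CPM in ESCs to 3.78 and 3.22 CPM in EBs (-1.70 ± 0.26, adjusted p = 0.00143). It had 10.4 and 7.13 CPM in knockout ESCs and 7.30 and 6.77 CPM in knockout EBs, above both control EBs (1.00 ± 0.26, adjusted p = 0.0462). Rbbp7 was also higher in knockout EBs (0.40 ± 0.09, adjusted p = 0.0216; 0.0734 to 0.218 without any 1 of the EB or control ESC libraries). The Phf19 call was lost without any of the 4 EB libraries (0.135 to 0.230) or either control ESC library (0.0969 and 0.0952).

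Other PRC1 genes moved both ways in knockout ESCs, with 4 of 29 called higher (8.3% of all genes) and 5 lower (6.2%). Scml2, a germline-associated Polycomb protein, fell by 1.02 ± 0.13 in ESCs (adjusted p = 0.000543), from 33.5 and 31.8 CPM to 16.6 and 15.5 CPM. It was lower still in knockout EBs, at 9.49 and 9.36 CPM against 31.2 and 30.3 CPM (-1.71 ± 0.14, adjusted p = 9.27e-05), and both calls held without any single library. Bcor, a subunit of the PCGF1 variant complex, fell by 0.79 ± 0.10 (adjusted p = 0.000605) and Phc1, a polymer-forming subunit of canonical PRC1, by 0.69 ± 0.10 (0.0015), both without dependence on a single library. Auts2, of the PCGF3 and PCGF5 complexes, and the deubiquitinase Usp7 were the other called falls; both are named after their values were seen.

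Bmi1 rose in knockout ESCs from 14.17 and 13.02 CPM to 25.8 and 35.2 CPM (1.17 ± 0.19, adjusted p = 0.00232; 0.0614 without control ESC replicate 2). Pcgf5 rose by 0.61 ± 0.13 (adjusted p = 0.0132; 0.140 and 0.106 without control ESC replicate 1 or 2). Cbx8, a low-count gene, rose from 1.76 ± 0.498 CPM to 4.01 ± 0.726 CPM (1.20 ± 0.34, adjusted p = 0.0424). That call was lost without control ESC replicate 1 (0.109) or 2 (0.334), knockout ESC replicate 1 (0.112), control EB replicate 1 (0.0602) or 2 (0.0616), or knockout EB replicate 1 (0.0814) or 2 (0.0850). Kdm2b (-0.15 ± 0.12), Rybp (0.15 ± 0.10), L3mbtl2 (-0.31 ± 0.10), Mga (-0.22 ± 0.11), E2f6 (0.03 ± 0.15) and Yaf2 (0.20 ± 0.17), partners of variant PRC1, did not pass. Neither did Pcgf1, Pcgf2, Pcgf3, Cbx2 and Cbx6 (adjusted p 0.136 to 0.973). In knockout EBs Bmi1 was the only other PRC1 gene called higher (0.75 ± 0.19, adjusted p = 0.0421; lost without any EB library, 0.112 to 0.227, or either control ESC library, 0.104) and Scml2 the only one called lower (2.04% of all genes).

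In control differentiation 3 of the 29 other PRC1 genes rose (8.6% of all genes) and 2 fell (9.63%), with a median of 0.12 against -0.32 for the 10 genes above. Bcor rose by 0.64 ± 0.10 (adjusted p = 0.00169), called without any single library. In knockout cells 4 rose (8.23% of all genes) and 1 fell (7.11%). Bcor (1.07 ± 0.10, adjusted p = 0.000122) and Phc1 (0.66 ± 0.10, 0.00233) were among those that rose, both called without any single library. For the difference of the knockout effect 0 of the 8 other PRC2 genes and 0 of the 29 other PRC1 genes were called by edgeR or by DESeq2. By edgeR 1 and 4 genes had an unadjusted p under 0.05, a threshold for which no share of all genes is given.

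Enzymes that oppose Polycomb were described in the same way. The H3K27 demethylase genes Kdm6a (-0.33 ± 0.18, adjusted p = 0.262) and Kdm6b (-0.29 ± 0.21, 0.421) did not pass in knockout ESCs, nor did they in knockout EBs. Of 14 genes of the COMPASS complexes, which methylate lysine 4 of histone H3, 2 fell in knockout ESCs (6.2% of all genes) and none rose. Ash2l, a core subunit, stood at 671.1 and 610.9 CPM in control and 369.1 and 441.7 CPM in knockout ESCs (-0.66 ± 0.10, adjusted p = 0.00122) and was called without any single library. Wdr5, another core subunit, fell by 0.38 ± 0.09 (0.0213; 0.132 and 0.177 without control ESC replicate 1 or 2). In knockout EBs Ash2l was again lower (-0.52 ± 0.10, adjusted p = 0.00991; 0.0979 and 0.104 without control EB replicate 1 or 2, 0.0945 without knockout EB replicate 1). Of the 14 COMPASS genes 1 was called lower in knockout EBs (2.04% of all genes) and 1 higher (4.75%). The higher one was Ncoa6 (0.40, adjusted p = 0.0462 by edgeR, not called by DESeq2 at 0.0649). Both knockout EB libraries lay below both controls for 11 of the 14 genes (29.4% of all genes) and above them for 1 (30%).

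Genes known as Polycomb targets in ESCs were described as well. Of 40 developmental genes with bivalent promoters 23 were tested. In knockout ESCs 9 of them rose (8.3% of all genes), 2 fell (6.2%) and 12 did not pass, with a median of 0.70. The endoderm factors Sox7 (2.35 ± 0.18, adjusted p = 1.94e-05), Sox17 (2.15 ± 0.23, 0.000213), Gata6 (1.91 ± 0.20, 0.000164) and Gata4 (1.85 ± 0.18, 0.000108) led, each called without any single library. These 4 are also among the extraembryonic endoderm markers, whose sum was higher in these libraries, and lists and markers were chosen with earlier results known. In knockout EBs 6 rose (4.75% of all genes) and none fell, with Tbx3, a T-box factor, called without any single library (1.35 ± 0.14, adjusted p = 0.00042). Of 39 Hox genes only 16 had enough counts to be tested. Hoxa10 (2.57 ± 0.39, adjusted p = 0.00153) and Hoxd13 (1.95 ± 0.38, 0.00695; 0.118 without control ESC replicate 2) rose in knockout ESCs, 2 of the 16 against 8.3% of all genes, at levels of 4.48 ± 0.458 and 4.01 ± 0.304 CPM against 0.765 ± 0.3 and 1.05 ± 0.357 CPM. The median of the 16 was 1.03, and 10 of them had both knockout ESC libraries above both controls (25.1% of all genes). A gene near the floor could pass the count filter through the group where it was high. The medians and counts of the Hox and bivalent lists may therefore lean towards such groups, by an amount that was not tested. In knockout EBs 0 of the 16 were called by edgeR or DESeq2, and 0 had an unadjusted p under 0.05.

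**Figure D5:**
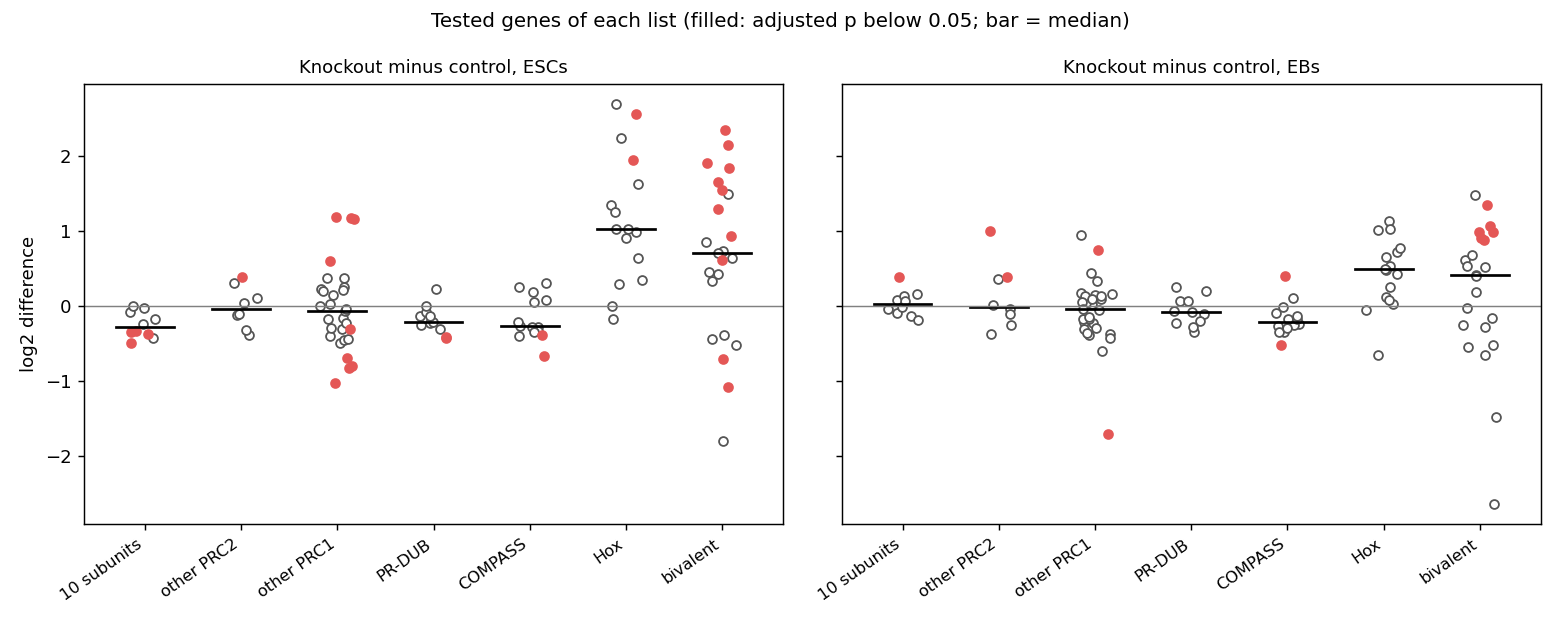
Log2 difference between knockout and control (y axis) for the tested genes of each list (x axis) in ESCs and EBs, with filled points for an adjusted p below 0.05 and bars at the medians. In ESCs the 10 subunits have a median of -0.28, and the bivalent and Hox lists have medians of 0.70 and 1.03. Bivalent and Hox genes near the floor could pass the count filter through the group where they were high.

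The genes whose profile was most like that of a subunit were found by the root mean square difference of centred log2 CPM over the 8 libraries, over the 10591 genes whose mean reached 5 CPM. For Ezh2 these were Nudcd1 (0.03), Polr3b (0.04) and Nedd4 (0.04), where a flat profile would differ by 0.16. For Jarid2 they were Gmeb1 (0.04), Fbxo22 (0.05) and Nat10 (0.06), against 0.19. For Cbx7 they were Dot1l (0.03), Fxr2 (0.04) and Large2 (0.04), against 0.27. The lowest of the 8 Cbx7 values, 128.0 CPM, is that of knockout ESC replicate 2, the library with the GC trend.

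In mm10, all 10 genes are protein coding. The plus strand holds Suz12 (ENSMUSG00000017548.15, chr11:79993106-80034123), Jarid2 (ENSMUSG00000038518.15, chr13:44729474-44921643) and Mtf2 (ENSMUSG00000029267.17, chr5:108065674-108109004). The minus strand holds Ezh2 (ENSMUSG00000029687.16, chr6:47530139-47595341), Ezh1 (ENSMUSG00000006920.14, chr11:101191115-101226463), Eed (ENSMUSG00000030619.10, chr7:89954654-89980983), Rnf2 (ENSMUSG00000026484.13, chr1:151458004-151500955), Ring1 (ENSMUSG00000024325.8, chr17:34020792-34024680), Cbx7 (ENSMUSG00000053411.16, chr15:79915807-79971119) and Pcgf6 (ENSMUSG00000025050.8, chr19:47033617-47050906). Exons of 4 of the 10 genes overlap a gene on the other strand: Eed shares 261 bases with E230029C05Rik, Mtf2 395 bases with Tmed5, Rnf2 158 bases with Trmt1l and Cbx7 100 bases with Apobec3. Since no source used here gives the strand setting of the counting, reads from these bases may belong to either gene.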

How the data were processed

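Poly(A)-selected RNA from 8 libraries was sequenced, and the authors deposited 1 table of raw counts per gene, not normalized, per the file headers. Per the submitters' processing notes, tools were HISAT2, featureCounts and DESeq2 and the build was mm10. No source used here gives versions, the strand setting or the treatment of multi-mapping reads.

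Each column was assigned by its title. Gene IDs were matched to GENCODE M21 symbols (55141 of 55401), 23376 genes had no count, and filterByExpr kept 17125. After TMM scaling, the quasi-likelihood test of edgeR was run on all 8 libraries, each group having its own mean (biological coefficient of variation 0.132), with Benjamini-Hochberg adjustment over all tested genes and a threshold of 0.05. CPM and FPKM were computed from the counts, and 95% intervals from the fit. The software was edgeR 4.0.16 and DESeq2 1.42.0 in R 4.3.3. The GC correction used a spline with 5 degrees of freedom per library. The test was checked on simulated data. Library totals of 12119763 to 16228426 counts limit the precision for low genes such as Ring1. Promoter windows came from RefSeq, GRCm38.p6.

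The 10 genes and all lists were chosen with earlier results of these data known, so no list is given a p-value. Named besides them were other Pcgf, Cbx, PRC2 and variant PRC1 genes and Kdm6a and Kdm6b whatever their result, up to 4 called genes with the smallest adjusted p from each other list and contrast, and 3 nearest profiles each for Ezh2, Cbx7 and Jarid2. The list of other PRC2 genes named 9 genes, of which 8 were matched in the table. The alternatives tried were other scaling, other filters, DESeq2, only the groups compared, a replicate block, the GC correction, a fold change of at least 1.5, and leaving out libraries. Values of 1 further gene named by this rule are not reported here.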

Additional observations from a re-analysis of the deposited data

Results flagged for a closer look

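The knockout effect on Sox7, a SOX factor of the endoderm and a gene of the bivalent list, differed between EBs and ESCs by -1.44 ± 0.24 on the log2 scale (adjusted p = 0.0238 for the difference itself, edgeR's quasi-likelihood test). Sox7 went from 8.52 ± 1.33 CPM in control ESCs to 43.7 ± 6.39 CPM in knockout ESCs, and from 14.2 ± 2.03 CPM in control EBs to 26.8 ± 1.05 CPM in knockout EBs (SD, n = 2). It was higher in all 4 knockout libraries than in the matching controls. The call was lost without control ESC replicate 1 (0.200) or 2 (0.156), control EB replicate 1 (0.161) or 2 (0.118), or knockout EB replicate 1 (0.141) or 2 (0.0682). The 10 extraembryonic endoderm markers, of which Sox7 is 1, summed to 2878 to 3033 CPM in control ESCs, 10072 to 12854.5 CPM in knockout ESCs, 3336 to 3555 CPM in control EBs and 6564 to 7160 CPM in knockout EBs. Their part in this difference was not tested.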

How the results depend on the processing

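Of the 10 genes, the number called in knockout ESCs (4) was 1 with only the groups compared, 2 with a replicate block, 7 with the GC trend removed, 7 with a replicate block and the GC trend removed together, 6 without both libraries that stand apart and 0 at a fold change of at least 1.5. Leaving out 1 library gave 1 to 6. For knockout EBs (1) it was 0 with the replicate block and 0 at a fold change of at least 1.5, with 0 to 2 when 1 library was left out. For control differentiation (5) it was 2 at that fold change, with 1 to 6. For knockout differentiation (2) it was 0 with only the groups compared, 4 with the replicate block and the GC correction, and 0 at that fold change, with 0 to 6. For the difference of the knockout effect (0) it was 3 with the GC trend removed, 2 with block and GC correction, and 4 without both libraries that stand apart, with 0 to 6. The fit with only the groups compared gives no value for that difference. A fit with 1 library left in a group assumes that it varies like the others. The cause of these moves was not tested.

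Groups share replicate numbers in the labels. The replicates' deviations had correlations of -0.09 to 0.02 over the 6 pairs of groups. These values show no strong effect shared by replicate number but cannot exclude a shared culture or batch. With the block 2, 0, 5, 2 and 0 genes were called in the 5 comparisons, in the order above. Ezh2 (0.0520) and Pcgf6 (0.0533) were just outside in ESCs, and Ezh1 (0.0574) in EBs.

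Signs turned for values near 0 that were not called. In knockout ESCs these were Ezh1 without both libraries (0.016), Rnf2 with library totals (0.0045), with a mean of at least 1 CPM (0.011) or without 1 library (-0.17 to 0.10), and Ring1 without 1 library (-0.19 to 0.17). In knockout EBs they were Eed with GC correction (-0.0083) and with block and GC correction (-0.0092), Suz12 with library totals (0.017), without both libraries (0.027) or without 1 (-0.048 to 0.031), and Ring1 without 1 library (-0.016 to 0.15). In knockout differentiation they were Ezh1 without 1 library (-0.083 to 0.092), Ezh2 with GC correction (0.056), with block and GC correction (0.057), without both libraries (0.079) or without 1 (-0.17 to 0.086), and Suz12 with library totals (-0.034) or without 1 library (-0.093 to 0.16). For the difference they were Ring1 with GC correction (-0.023), with block and GC correction (-0.026), without both libraries (-0.047) or without 1 (-0.10 to 0.26), and Cbx7 without both libraries (-0.012).

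Over all genes, 2483, 1164, 3121, 2627 and 237 were called in the same order of comparisons. The counts that moved by over 1.5 times were 2094 for knockout EBs and 704 for the difference without a filter, 393 for the difference with DESeq2, 1358, 2720, 5571 and 818 with only the groups compared, 4048, 2806 and 728 (ESCs, EBs, difference) with the GC trend removed, 3967, 2658 and 682 with block and GC correction, and 1923, 5557 and 769 (EBs, control differentiation, difference) without both libraries. Leaving out 1 library gave 756 to 4729, 236 to 3127, 830 to 5512, 843 to 5485 and 0 to 2040. The GC correction moved the share of higher calls from 57.2% to 47.0% in knockout ESCs and from 69.9% to 45.3% in knockout EBs, and library totals moved it from 53.7% to 42.1% in knockout differentiation.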

Other observations

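E2F factors are known to drive genes of the cell cycle, and also Ezh2 and Eed. Of 22 such cell cycle genes, 2 rose (8.3% of all genes) and 2 fell (6.2%) in knockout ESCs, with a median of -0.05; the share called was near that of all genes. E2f1 itself went from 55.9 ± 2.75 to 34.7 ± 5.92 CPM (-0.69 ± 0.14, adjusted p = 0.00698 by edgeR; 0.0556 and 0.104 without control ESC replicate 1 or 2). Cdc6, a licensing factor of replication, had 0.38 ± 0.10 (0.029) and was not called without any 1 of the control ESC or EB libraries (0.0624 to 0.253). In knockout EBs 0 of the 22 were called by edgeR (6.8% of all genes) and 1 by DESeq2, as lower (416 of 17125 genes). By edgeR 8 were lower and 1 higher at an unadjusted p under 0.05, for which no share of all genes is given. The median was -0.14, against 0.002 over all genes tested. Both knockout EB libraries lay below both controls for 16 of the 22 (29.4% of all genes) and above them for 2 (30%).

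PR-DUB removes the ubiquitin that PRC1 places on histone H2A. Of its 11 genes 2 fell in knockout ESCs, where 6.2% of all genes were called lower: the scaffold Asxl1 (-0.41 ± 0.08, adjusted p = 0.00689; 0.0632 and 0.0966 without control ESC replicate 1 or 2) and Hcfc1 (-0.42 ± 0.12, 0.0462; lost without any 1 of the control ESC or EB libraries, 0.0646 to 0.258). From ESCs to EBs in control cells 2 of the 11 rose (8.6% of all genes) and 2 fell (9.63%), with a median of 0.09. Asxl1 (0.31, adjusted p = 0.0236 by edgeR) and Hcfc1 (0.44, 0.0347) rose. Ogt, the GlcNAc transferase, fell by 0.76 ± 0.09 (adjusted p = 0.000425, called without any single library), and Mbd5 fell as well (-0.64, 0.0268).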
